A study of Mus musculus with 11 samples.

Results

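The cells described here are neutrophils of the mouse cerebral cortex, the 348 of 50625 kept cells that met a rule on their own transcripts. Kept cells were those in which over 500 but under 6000 genes were seen and in which less than 25% of unique molecular identifiers (UMIs, 1 per captured transcript copy) came from mitochondrial genes. A kept cell was counted as a neutrophil when it held at least 20 UMIs of S100a8 and S100a9 together, at least 2 of Retnlg, Csf3r, Cxcr2 and Mmp9 together, at most 3 of the microglial genes C1qa and C1qb and at most 2 of the endothelial genes Cldn5 and Flt1. Of the 348, 261 came from the 2 libraries of experimental autoimmune encephalomyelitis (EAE) and 73 from the 2 Aged libraries, and these 334 cells are the ones compared below.

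All mice were C57BL/6, and the labels name no transgene. EAE mice were females of 7–11 weeks, immunized with a peptide of myelin oligodendrocyte glycoprotein in Complete Freund's Adjuvant, given pertussis toxin, and killed at the peak of disease. Aged mice were 18 months old and untreated, and untreated Adult (7–11 weeks) and Juvenile (postnatal day 10) mice gave the other libraries. Each EAE or Aged library is described as 1 pool of 3 mice and each Adult or Juvenile library as 1 pool of 6. The p-values below measure the spread between libraries, taken as separate pools. EAE and Aged mice differed in age, in immunization, in adjuvant and in toxin, and these cannot be told apart in their comparison. The mice had been perfused and the meninges removed before the tissue was digested.

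Neutrophils are short-lived phagocytes that leave the bone marrow as mature cells and enter tissue from blood. They fill their granules in order while they mature: primary granules with Mpo, Elane and Prtn3, secondary granules with Ltf, Camp, Ngp and Lcn2, and tertiary granules with Mmp9, so that transcripts of secondary granules mark younger cells. The healthy brain parenchyma holds few of them, and in EAE they enter the central nervous system with monocytes and T cells.

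Neutrophils made up 1.62% of kept cells in EAE 1 (95% Clopper-Pearson interval 1.36–1.92) and 1.56% in EAE 2 (1.30–1.85). In Aged 1 they made up 0.707% (0.496–0.977) and in Aged 2 0.779% (0.549–1.07). Adult libraries held 3, 4 and 3 such cells and Juvenile libraries 0, 0, 1 and 3. The intervals cover counting error only, and since the rule itself used transcripts the shares are a description. The gap depended on the gene limit: with a lower limit of more than 200 genes the shares were 1.25% and 1.04% in Aged and 1.81% and 1.80% in EAE.

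**Figure D1:**
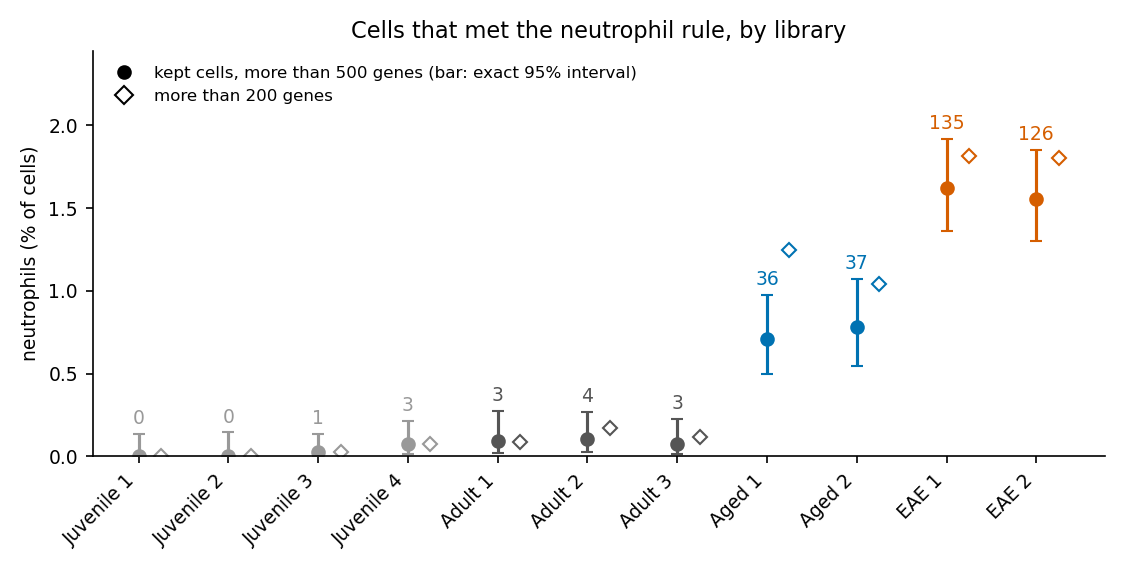
Cells that met the neutrophil rule as a percentage of kept cells (vertical axis) in each of the 11 libraries (horizontal axis), with the number of cells above each filled point and exact 95% intervals as bars. Open diamonds show the share when barcodes with more than 200 genes were kept. Both EAE libraries lie above both Aged libraries, and no Adult or Juvenile library holds more than 4 cells.

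The neutrophils were shallow cells. Their median UMI count was 1859.5 and 2294 in Aged 1 and Aged 2 and 1695 and 1837.5 in EAE 1 and EAE 2, and their median number of genes was 621.5, 655, 659 and 692.5 in the same order. Summed over the cells of a library they held 107749 and 107065 UMIs in Aged and 298687 and 293486 in EAE, of libraries with 16993277 to 34326349 UMIs in all. Libraries shared at most 125 barcodes, 1.51% of the smaller one. Scrublet called no neutrophil a doublet, but in Aged 2 it called only 0.0421% of all cells and did not work there.

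The genes of the rule give the level that chose the cells, in plain CPM (a gene's summed UMIs scaled to a library total of 1000000). S100a8, which with S100a9 forms the metal-binding protein calprotectin, stood at 172420 and 188520 in Aged 1 and Aged 2 and at 103870 and 125740 in EAE 1 and EAE 2. S100a9 stood at 110090, 112830, 74998 and 84133, so that calprotectin transcripts made up 28.3% and 30.1% of all neutrophil UMIs in Aged and 17.9% and 21% in EAE. In endothelial cells of these libraries, which were chosen to hold under 20 of these UMIs, they made up at most 0.0217%. Retnlg stood at 22970, 41190, 38124 and 40690 CPM. Csf3r, the receptor of the growth factor G-CSF, stood at 362, 486, 502 and 429 CPM and Cxcr2, a receptor for CXC chemokines, at 186, 205, 559 and 569 CPM. At the S100 limit, 1 cell in each of the 4 libraries held 20–29 UMIs of S100a8 and S100a9, and 0, 0, 5 and 1 more barcodes in the same order would have entered at 10–19 UMIs. At the receptor limit 2, 1, 4 and 6 cells held exactly 2 UMIs, and 2, 0, 5 and 5 more barcodes held 1. The C1q limit alone kept out 3, 3, 18 and 28 barcodes. The endothelial limit kept out 5, 7, 20 and 13, counted whether or not they also passed the C1q limit.

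Other genes known to mark neutrophils, which the rule did not use, were present in all 4 libraries. CPM values from here on are those of the edgeR fit, scaled by TMM over the genes tested, unless they are called plain. Hdc, which makes histamine, stood at 1607 and 1536 CPM in Aged and at 1734 and 1837 CPM in EAE neutrophils. Trem1, an activating receptor, stood at 483 and 480 CPM in Aged and 544 and 517 CPM in EAE. Clec4d, a C-type lectin, stood at 719 and 804 CPM in Aged and 687 and 656 CPM in EAE. None of these 3 was called. Ly6g, the surface protein used to stain mouse neutrophils, was sparse, with 7 and 7 UMIs in Aged and 6 and 3 in EAE, and called lower in EAE, a call that held in 6 of the 11 alternatives in which it could be tested and not in DESeq2 (adjusted p = 0.252). Markers of lymphocytes, platelets and dendritic cells were low but not all at 0. The 10 T and NK cell markers summed to 18.6 and 18.7 plain CPM in Aged and to 117 and 109 in EAE neutrophils, with 1 of them, Trac, at 0 in all 4 libraries, and to 20.1, 50.9, 101 and 133 in endothelial cells. The 7 B cell markers summed to 27.8–57.9 with 2 at 0 (Cd79a and Ms4a1), the 4 platelet markers to 6.81–37.1 with 2 at 0, and the 7 dendritic cell markers to 0–10.2 with 4 at 0.

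EAE and Aged neutrophils were compared over 1905 genes on the summed UMIs of the 2 libraries of each. In edgeR's quasi-likelihood test, 295 genes (15.5% of those tested) passed an adjusted p of 0.05 and are referred to as called, of which 150 were higher in EAE (7.87%) and 145 lower (7.61%). The number of calls depended on the tool: DESeq2 called 52 genes, 17 higher and 35 lower, all of them among the 295. Without the EAE 1 library edgeR called 114 genes and without EAE 2 it called 146. Those 2 fits held 1 EAE library each, so the Aged libraries alone gave the spread. Of all genes tested in the main fit 583 had an unadjusted p under 0.05. The next paragraphs lead with the 31 genes, 17 higher and 14 lower in EAE, that were called under every one of 16 alternative analyses, of which leaving out doublets by Scrublet removed no neutrophil tested here and so could not change a call; this set was chosen after its values had been seen.

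**Figure D2:**
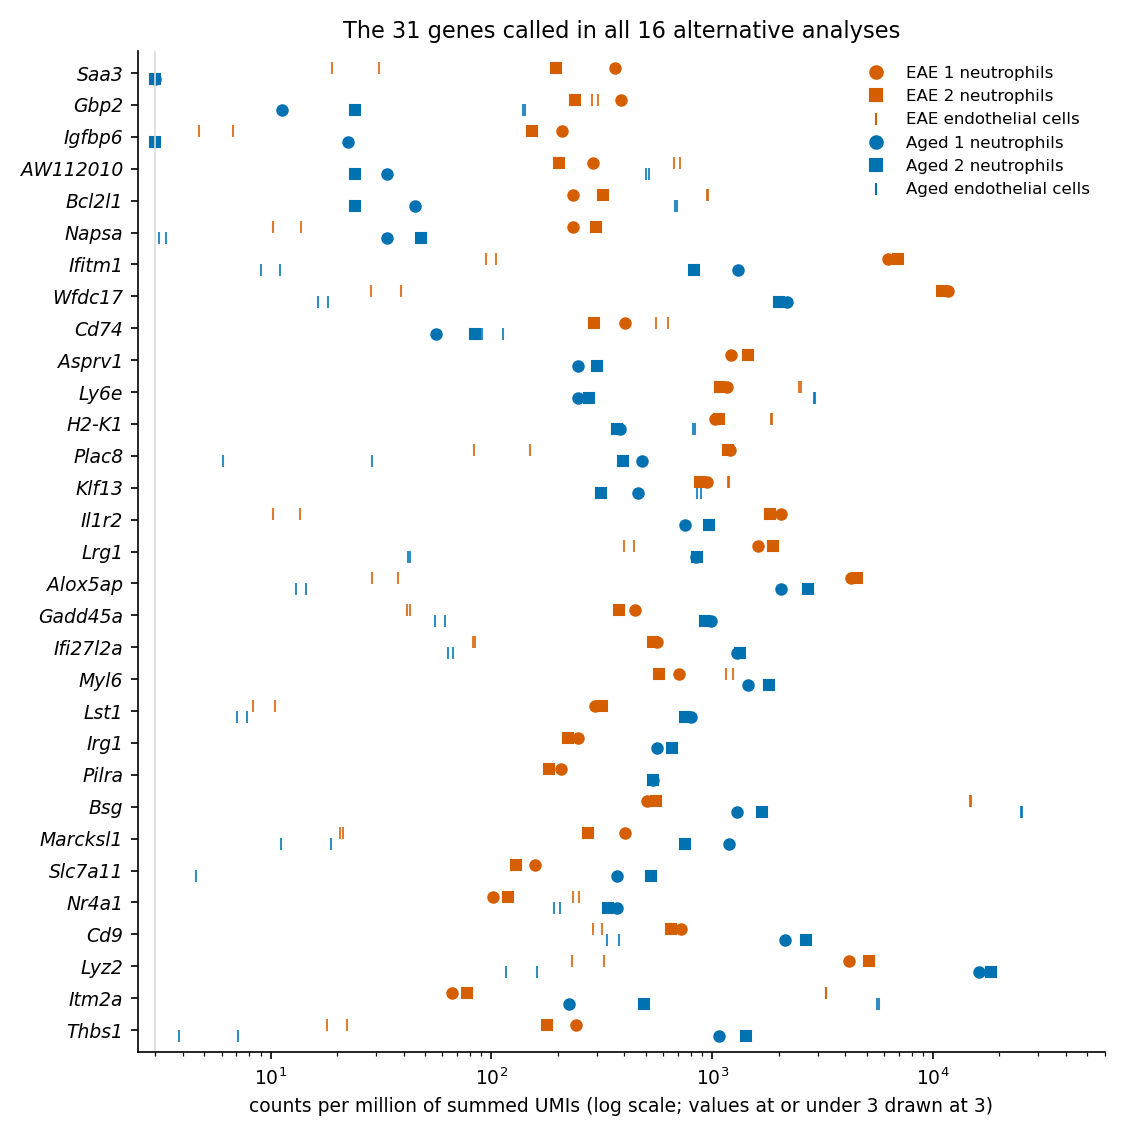
TMM-scaled CPM (horizontal axis, log scale, values at or under 3 drawn at 3) of the 31 genes called in all 16 alternatives, with 1 large symbol per library of neutrophils (EAE orange, Aged blue) and ticks for endothelial cells of the same libraries in plain CPM. For each gene the 2 EAE symbols lie on one side of the 2 Aged symbols, as the values did for all 295 called genes. For Ly6e, AW112010, Bcl2l1, Bsg and Itm2a the endothelial ticks lie above all neutrophil symbols.

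Wfdc17, a small secreted protein with a WAP domain (GRCm38 chr11:83703991-83706268, plus strand), stood at 2191 and 2003 CPM in the Aged and 11740.5 and 11006 CPM in the EAE libraries. It was higher in EAE by 2.44 on the log2 scale (SE 0.20, edgeR adjusted p = 1.18e-10). Ifitm1, an interferon-induced membrane protein that restricts virus entry (chr7:140967221-140969825, plus strand), stood at 1304 and 828 CPM in Aged and at 6280 and 6954 CPM in EAE, a log2 difference of 2.63 (SE 0.21, edgeR adjusted p = 1.13e-10). Both genes were far lower in endothelial cells, where they also stood higher in EAE, Wfdc17 at 16.3 and 18.2 plain CPM in Aged and 39.1 and 28.5 in EAE, and Ifitm1 at 9.04 and 11.0 in Aged and 105 and 94.8 in EAE. The part of transcripts from other cells in the neutrophil values was not tested. After each cell was thinned to 1000 UMIs, 44.4% and 24.3% of Aged and 74.8% and 73.6% of EAE neutrophils held an Ifitm1 UMI, so the gap was one of cells with a transcript as well as of summed level.

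Asprv1, a retroviral-like aspartic protease (chr6:86628164-86629710, plus strand), stood at 247 and 299.9 CPM in Aged and 1221 and 1454 CPM in EAE neutrophils. The difference was 2.29 on the log2 scale (SE 0.22, edgeR adjusted p = 4.41e-09), and endothelial cells held at most 2.93 plain CPM. In thinned cells 8.3% and 21.6% of Aged and 55.6% and 59.2% of EAE neutrophils held an Asprv1 UMI. Napsa, a second aspartic peptidase, stood at 33.7 and 48.0 CPM in Aged and 234 and 298 CPM in EAE. Plac8, a cysteine-rich protein of myeloid cells, stood at 483 and 396 CPM in Aged and 1209 and 1174 CPM in EAE (log2 difference 1.43, SE 0.20, edgeR adjusted p = 5.53e-06). Lrg1, a glycoprotein that neutrophils store and secrete, stood at 843 and 852 CPM in Aged and 1613 and 1894 CPM in EAE. The libraries of the groups did not overlap in these genes, but this held for all 295 called genes and for 1097 of the 1905 tested.

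An acute phase gene and a gene of a growth factor binding protein had few or no UMIs in Aged neutrophils. Saa3, an acute phase serum amyloid A protein (chr7:46711998-46715700, minus strand), had no UMI in either Aged library and 115 and 58 UMIs in EAE 1 and EAE 2, at least 20.9-fold higher against a limit of 3 counts over the Aged group. After thinning, 9.63% and 5.6% of EAE neutrophils held a Saa3 UMI. EAE endothelial cells held 31.0 and 19.0 plain CPM of Saa3 and EAE macrophages 1804.5 and 1884 CPM on the scale of their own comparison, and the part of these cells in the neutrophil value was not tested. Igfbp6, which binds insulin-like growth factors, had 2 UMIs in Aged and 111 in EAE, a ratio of 20.1 (95% counting interval 5.44–168).

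Among receptors and enzymes of lipid mediators, Il1r2, the decoy receptor that binds interleukin 1 without signalling, stood at 753 and 972 CPM in Aged and at 2056 and 1833 CPM in EAE neutrophils (log2 difference 1.18, SE 0.18, edgeR adjusted p = 3.43e-05). Its ligand Il1b stood at 4383 and 3899 CPM in Aged and 3429 and 4147 CPM in EAE, and the groups overlapped (log2 difference −0.13, edgeR adjusted p = 0.671). Alox5ap, which presents arachidonic acid to 5-lipoxygenase for leukotriene synthesis, stood at 2045 and 2711 CPM in Aged and 4258 and 4536 CPM in EAE (log2 difference 0.89, edgeR adjusted p = 0.000791). Of 14 cytokine receptors tested, 3 were higher (Il1r2, Il13ra1 and Il4ra; 21.4%, beside 7.87% of all genes) and none lower, with a median log2 difference of 0.42 against −0.0157 over all genes tested. DESeq2 called 1 of these 3. Of the 14 tested, 8 reached the level of the filter, 49.8 plain CPM, in both EAE but not in both Aged libraries, as did 2 of the 3 called. Over all genes this held for 529 of 1905, so the filter fixes part of the direction of this list. Il4ra rested on 3 UMIs in Aged (ratio 7.38, 2.41–36.8).

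The genes that were lower in EAE neutrophils included enzymes and surface proteins of phagocytes. Lyz2, the lysozyme of myeloid cells (chr10:117277331-117282321, minus strand), stood at 16127 and 18355 CPM in Aged and 4179 and 5124 CPM in EAE, a log2 difference of −1.89 (SE 0.20, edgeR adjusted p = 3.43e-08). Cd9, a tetraspanin of the plasma membrane, stood at 2147 and 2651 CPM in Aged and 721 and 649 CPM in EAE (−1.80, SE 0.17, edgeR adjusted p = 4.41e-09). Thbs1, the matrix protein thrombospondin 1, stood at 1079 and 1428 CPM in Aged and 240 and 179 CPM in EAE (−2.57, SE 0.21, edgeR adjusted p = 1.18e-10). These are broad differences over cells: in thinned cells 47.2% and 54.1% of Aged and 12.6% and 10.4% of EAE neutrophils held a Thbs1 UMI, and 83.3% and 83.8% against 51.1% and 44.8% held a Cd9 UMI.

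Other lower genes of this kind were Pilra, an inhibitory receptor (539 and 539.8 CPM in Aged, 206 and 183 CPM in EAE), and Lst1, a small membrane protein of leukocytes (798 and 756 CPM, 294 and 318 CPM). Gadd45a, a stress-induced growth arrest gene, stood at 989 and 924 CPM in Aged and 449 and 379 CPM in EAE. G0s2, an inhibitor of lipolysis that is abundant in neutrophils, stood at 6316 and 6322 CPM in Aged and 3335 and 2895 CPM in EAE (log2 difference −1.02, edgeR adjusted p = 0.000111). As in all 295 called genes, the libraries of the 2 groups did not overlap in these.

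Of 16 genes tested from a list for secondary granules, 8 (50%, beside 7.61% of all genes) were lower in EAE (Camp, Lyz2, Ltf, Ngp, Cd177, Ltb4r1, Pglyrp1 and Anxa1). Another 2 were higher (Stfa2 and Stfa2l1, stefins whose near copies can share reads), and the median log2 difference was −0.594. The list is not confined to granule proteins: Ltb4r1 is a receptor for leukotriene B4. Ltb4r1 and Cd177 are counted again below, among chemotactic receptors and adhesion genes. DESeq2 called 5 lower and none higher. Camp, the antimicrobial peptide cathelicidin (chr9:109847379-109849617, minus strand), stood at 44527 and 22961.5 CPM in Aged and at 7855 and 8046 CPM in EAE neutrophils (log2 difference −2.09, SE 0.27, edgeR adjusted p = 5.21e-05). Ngp, neutrophilic granule protein, stood at 53529 and 33938 CPM in Aged and 17027 and 15923 CPM in EAE (−1.41, SE 0.23, edgeR adjusted p = 6.09e-05). Ltf, the iron-binding lactotransferrin, stood at 5046 and 3455 CPM in Aged and 1259 and 1515 CPM in EAE (−1.62, SE 0.18, edgeR adjusted p = 2.31e-07). The 2 Aged libraries differed from each other more than the 2 EAE libraries did for Camp and Ngp, but both lay above EAE. A few deep cells carried much of these sums: the 3 deepest cells of each library held 34.7%, 20%, 10.2% and 8.51% of the neutrophil UMIs and 70.0%, 64.1%, 52.5% and 35.6% of the Camp, Ltf and Ngp UMIs in Aged 1, Aged 2, EAE 1 and EAE 2. With every cell thinned to 1000 UMIs Camp still differed, by −2.45 (edgeR adjusted p = 1.03e-12). Any UMI of the 3 genes together was held by 44.4% and 59.5% of thinned Aged and 38.5% and 42.4% of thinned EAE cells, with overlapping intervals. The genes differed in this. Before thinning, Camp was held by 44.4% and 51.4% of Aged and 15.6% and 19.0% of EAE neutrophils. Ltf was held by 33.3% and 35.1% against 12.6% and 12.7%, and Ngp by 44.4% and 62.2% against 40.7% and 52.4%. Pglyrp1, a peptidoglycan recognition protein, stood at 4563 and 5902 CPM in Aged and 2578 and 3162 CPM in EAE, with 2579–3915 plain CPM in endothelial cells.

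Not all granule transcripts moved this way. Lcn2, the siderophore-binding lipocalin 2, stood at 10362 and 7798 CPM in Aged and 5492 and 7011 CPM in EAE and was not called (edgeR adjusted p = 0.0561). Hp, haptoglobin, stood at 3428 and 2831 CPM in Aged and 3410.5 and 3781 CPM in EAE. Mmp8, the neutrophil collagenase, was higher in EAE, at 1371 and 1679.5 CPM in Aged and 2347 and 2537 CPM in EAE (log2 difference 0.68, SE 0.17, edgeR adjusted p = 0.00629), while the protease inhibitor Slpi was lower. DESeq2 called neither Mmp8 (adjusted p = 0.153) nor Slpi (0.155). Transcripts of primary granule enzymes were rare: of this list only Prtn3, Srgn and Serpinb1a passed the filter, none of the 3 was called, and 95 Elane and 12 Mpo UMIs of EAE 1 sat in 1 cell.

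Secondary granule transcripts were concentrated in a minority of cells. Camp, Ltf and Ngp together reached up to 17.9%, 16.2%, 18.6% and 16.4% of a cell's UMIs in Aged 1, Aged 2, EAE 1 and EAE 2, while 19 of 36, 12 of 37, 79 of 135 and 59 of 126 cells held none. A limit of 1% of UMIs, chosen after the data had been seen, set off 14 of 36 cells in Aged 1 (38.9%, 95% interval 23.1–56.5) and 13 of 37 in Aged 2 (35.1%, 20.2–52.5). It set off 18 of 135 cells in EAE 1 (13.3%, 8.10–20.3) and 21 of 126 in EAE 2 (16.7%, 10.6–24.3). Between 0.5% and 2% lay 0, 8, 6 and 10 cells of the 4 libraries, so in 3 libraries the limit cut through a range of values, while in Aged 1 no cell lay near it. The cells above the limit were deeper, with median UMI counts of 3205, 3919, 4377 and 4676 against 1588, 1908.5, 1622 and 1688 below it. With more than 200 genes per cell the shares came closer together, 21.6% and 23.2% in Aged and 11.7% and 14.8% in EAE.

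**Figure D3:**
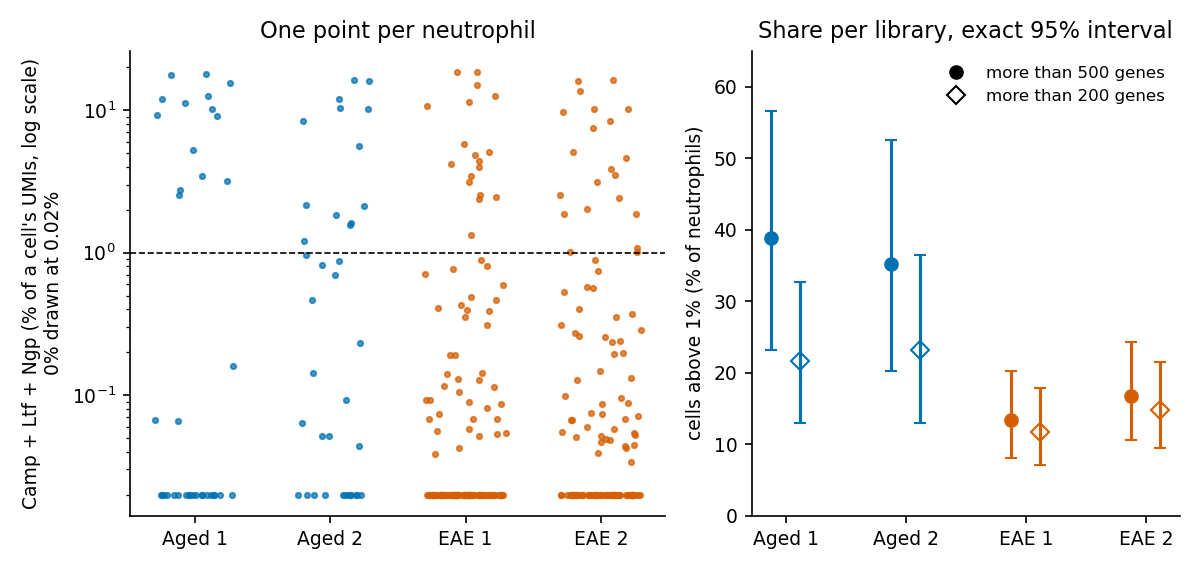
Left, Camp, Ltf and Ngp together as a percentage of a cell's UMIs (vertical axis, log scale, 0% drawn at 0.02%) for each neutrophil of the 4 libraries, with the limit of 1% dashed. Right, the percentage of neutrophils above that limit with exact 95% intervals, for cells with more than 500 genes (filled) and more than 200 genes (open). Cells above the limit are a minority in every library, 38.9% and 35.1% in Aged and 13.3% and 16.7% in EAE.

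Cells above and below the limit differed in other transcripts in each of the 4 libraries. In plain CPM, Il1b stood at 867 above and 9321 below the limit in Aged 1, 1155 and 5260 in Aged 2, 775 and 4893 in EAE 1, and 568 and 5906 in EAE 2. Ifitm1 stood at 151 above and 2993 below in Aged 1, 17.2 and 1386 in Aged 2, 284 and 9462 in EAE 1, and 473 and 10134 in EAE 2. Wfdc17 and Cxcr4, the receptor of the chemokine Cxcl12, were also lower above the limit in all 4 libraries. Cybb, the catalytic subunit of the phagocyte NADPH oxidase, and Chi3l3, a chitinase-like lectin, were higher above it in all 4. These cells were split by the level of Camp, Ltf and Ngp in the same cells, so these values are a description.

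The groups also differed among the cells below the limit alone. There edgeR called 163 of 1465 genes tested. Of 13 members of the secondary granule list that could be tested, 1 was higher and 1 lower. These cells were chosen for low Camp, Ltf and Ngp, so the split fixes part of that count. Ifitm1 stood at 3414 and 1777 CPM in Aged and 10007 and 10806 CPM in EAE (log2 difference 2.02, SE 0.28, edgeR adjusted p = 0.00541). Wfdc17 stood at 6177 and 4129.9 CPM in Aged and 18717 and 17205 CPM in EAE (1.81, SE 0.24, edgeR adjusted p = 0.00541). Lyz2, the lower member of the granule list in these cells, stood at 11997 and 11841 CPM in Aged and 2667 and 3111 CPM in EAE (−2.04, SE 0.18, edgeR adjusted p = 0.000892), Cd9 differed by −2.08 and Thbs1 by −2.05. The differences of Ifitm1, Wfdc17, Lyz2, Cd9 and Thbs1 were thus present in cells that held little or none of the granule set.

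The members of the interferon and antigen presentation lists that were called were higher in EAE. Of 11 targets of interferon gamma tested, 6 were higher in EAE (Gbp2, Igtp, Irgm1, Tap1, Irf1 and Psmb9; 54.5%, beside 7.87% of all genes) and none lower. The list has 26 members, and 7 of the 11 tested, among them 5 of the 6 called, reached the level of the filter, 49.8 plain CPM, in both EAE but not in both Aged libraries, so the filter fixes part of this direction. The same held for 7 of the class I, 4 of the class II and 8 of the interferon-stimulated genes below, and for 529 of all 1905 genes. DESeq2 called 1, Gbp2, the guanylate-binding protein that attacks vacuoles of pathogens. Gbp2 (chr3:142620602-142638008, plus strand) stood at 11.2 and 24 CPM in Aged and at 386 and 240.1 CPM in EAE. These were 3 UMIs in Aged and 193 in EAE, a ratio of 23.3 (95% counting interval 7.87–114). In thinned cells 0% and 2.7% of Aged and 23.7% and 27.2% of EAE neutrophils held a Gbp2 UMI. Endothelial cells of the same libraries held 141, 139, 287 and 303 plain CPM and were also higher in EAE, and the part of transcripts from other cells in the neutrophil result was not tested. Irf1, an interferon-induced transcription factor, stood at 45 and 24 CPM in Aged and 127 and 118 CPM in EAE. Igtp and Irgm1, GTPases of the same defence system, rested on 3 UMIs each in Aged (ratios 7.38, 2.41–36.8, and 5.68, 1.83–28.5).

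The promoters of the 6 called genes were read for 2 short motifs that interferon-activated factors are known to use. The windows run from 250 bases before to 50 after a RefSeq start (GRCm38.p6), and the 6 genes had 7. The first motif, GAAA followed after any 2 bases by a second GAAA and searched on both strands, was in 3 of the 6 genes (Gbp2, Igtp and Irgm1) and in 3.44% of 32851 windows of all genes. The second motif, TTCNNNGAA, was in 2 of the 6 (Igtp and Irf1) and in 8.30% of all windows. In Gbp2 the first motif began 59 bases before the start, in Igtp 34, and in Irgm1 at 30 and, overlapping, at 24. The counts are of genes and the percentages of windows. The 6 genes came from a list of interferon gamma targets, so a share above that of all windows is no result about these cells. A match is a description of the sequence and does not show that a factor bound there. The 3 windows with the first motif are shown because they hold it within 60 bases of the start, with matched bases in capitals, including the second motif of Igtp. They are Gbp2 at chr3:142620413-142620712 (plus strand), Igtp at chr11:58199306-58199605 (plus strand) and Irgm1 at chr11:48871371-48871670 (minus strand).
Gbp2: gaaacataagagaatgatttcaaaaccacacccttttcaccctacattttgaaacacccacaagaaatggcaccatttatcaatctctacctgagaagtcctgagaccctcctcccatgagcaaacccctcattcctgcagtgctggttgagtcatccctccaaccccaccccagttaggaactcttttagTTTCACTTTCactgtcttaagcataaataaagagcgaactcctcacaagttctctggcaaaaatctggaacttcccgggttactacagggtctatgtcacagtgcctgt
Igtp: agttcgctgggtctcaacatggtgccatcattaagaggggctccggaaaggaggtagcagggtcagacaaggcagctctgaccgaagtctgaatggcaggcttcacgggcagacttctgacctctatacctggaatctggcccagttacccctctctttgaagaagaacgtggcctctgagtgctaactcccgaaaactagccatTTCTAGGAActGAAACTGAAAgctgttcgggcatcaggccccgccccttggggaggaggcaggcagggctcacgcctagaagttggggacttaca
Irgm1: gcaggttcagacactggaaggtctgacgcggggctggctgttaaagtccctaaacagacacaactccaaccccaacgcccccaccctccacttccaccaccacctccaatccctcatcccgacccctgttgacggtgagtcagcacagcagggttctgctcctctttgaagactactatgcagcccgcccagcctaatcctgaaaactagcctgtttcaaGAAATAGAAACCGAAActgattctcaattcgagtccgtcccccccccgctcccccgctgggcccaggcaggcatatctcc

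Of 15 genes of MHC class I presentation tested, 8 were higher in EAE (B2m, H2-D1, H2-K1, H2-Q6, H2-Q7, H2-T22, Tap1 and Psmb9; 53.3%, beside 7.87% of all genes) and none lower, and DESeq2 called 1. H2-Q6 rested on 2 UMIs in Aged (ratio 9.79, 2.58–82.9). H2-K1, a classical class I heavy chain, stood at 382 and 372 CPM in Aged and 1031 and 1076 CPM in EAE neutrophils (log2 difference 1.48, SE 0.20, edgeR adjusted p = 5.51e-06). B2m, the light chain, stood at 2675 and 2915 CPM in Aged and 4293 and 4069 CPM in EAE (0.58, edgeR adjusted p = 0.0183). Endothelial levels differed in the same direction, with H2-K1 at 839.9 and 818 plain CPM in Aged and 1846 and 1867 in EAE. Of 4 genes of class II presentation, 3 were higher (Cd74, H2-Aa and H2-Eb1; 75%, beside 7.87% of all genes), of which DESeq2 called Cd74. All 4 reached the level of the filter in both EAE but not in both Aged libraries, so the filter fixes part of this direction. H2-Eb1 rested on 3 UMIs in Aged (ratio 10.9, 3.61–53.8). Cd74, the invariant chain, stood at 56.2 and 84.0 CPM in Aged and 402 and 291 CPM in EAE neutrophils, and at 113, 90.8, 634 and 557 plain CPM in endothelial cells. In thinned cells 30.4% and 24.8% of EAE neutrophils held a Cd74 UMI and 30.0% and 28.3% of EAE endothelial cells, so the level of Cd74 was not above that of the other cells. H2 genes share near-identical sequence and their counts are uncertain where reads could be split.

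Of 18 further interferon-stimulated genes tested, 5 were higher (Ifitm1, Slfn2, Zbp1, Ifi47 and Bst2; 27.8%, beside 7.87% of all genes) and none lower, and DESeq2 called Ifitm1 alone. Bst2 rested on 2 UMIs in Aged (ratio 7.80, 2.03–66.5). The share of thinned neutrophils with a UMI of Ifit1, Ifit3, Isg15 or Rsad2 was 33.3%, 29.7%, 29.6% and 33.6% in Aged 1, Aged 2, EAE 1 and EAE 2, all below or near that of endothelial cells. Zbp1, a sensor of Z-form nucleic acid, stood at 11.2 and 108 CPM in Aged and 304 and 206 CPM in EAE. Ly6e, a surface protein induced by interferon (chr15:74955051-74959905, plus strand), stood at 247 and 276 CPM in Aged and 1167 and 1089 CPM in EAE (log2 difference 2.11, SE 0.22, edgeR adjusted p = 2.44e-08). Its level in endothelial cells, 2917 and 2879 plain CPM in Aged and 2514 and 2471 in EAE, went the other way. Ifi27l2a, also named for its response to interferon but in none of these lists, was lower in EAE neutrophils, at 1292 and 1332 CPM in Aged and 563 and 538 CPM in EAE.

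Of 17 genes of the oxidative burst and of redox balance tested, 5 were lower in EAE (Cybb, Slc7a11, Irg1, Sod2 and Ncf1; 29.4%, beside 7.61% of all genes) and none higher, with a median log2 difference of −0.41, and DESeq2 called 3. Cybb stood at 753 and 420 CPM in Aged and 158 and 149 CPM in EAE (log2 difference −1.94, SE 0.27, edgeR adjusted p = 6.21e-06). Slc7a11, the cystine importer, stood at 371 and 528 CPM in Aged and 158 and 129 CPM in EAE (−1.63, SE 0.27, edgeR adjusted p = 6.97e-05). Irg1, the enzyme that makes itaconate, stood at 562 and 660 CPM in Aged and 247 and 223 CPM in EAE (−1.37, SE 0.23, edgeR adjusted p = 6.80e-05). Ncf1, a cytosolic subunit of the oxidase, stood at 539 and 432 CPM in Aged and 234 and 271 CPM in EAE. Cybb also differed between cells above and below the granule limit, and among the cells below it alone Cybb was not called between the groups (log2 difference −1.27, edgeR adjusted p = 0.223). Slc7a11 and Irg1 were among the 31 genes called in every alternative.

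Adhesion molecules and chemotactic receptors were called in both directions. Of 12 adhesion genes tested, 4 were lower (Ly6g, Cd9, Itgb2l and Cd177; 33.3%, beside 7.61% of all genes) and 1 higher (8.33%, beside 7.87%), and DESeq2 called Cd9 alone. The higher one, Selplg, the ligand through which leukocytes roll on selectins, stood at 382 and 420 CPM in Aged and 800 and 886 CPM in EAE (log2 difference 1.07, SE 0.21, edgeR adjusted p = 0.000486). Cd177, a surface protein that binds endothelium, stood at 641 and 612 CPM in Aged and 278 and 321 CPM in EAE. Of 9 chemotactic receptors tested, Ccr1, a receptor for CC chemokines, was higher (427 and 420 CPM in Aged, 772 and 697 CPM in EAE). Ptafr and Ltb4r1, receptors for platelet-activating factor and leukotriene B4, were lower. These were 11.1% and 22.2% of the list, beside 7.87% and 7.61% of all genes, and DESeq2 kept none of the 3 calls. Cxcr4 stood at 225 and 179.9 CPM in Aged and 294 and 328 CPM in EAE and was not called (edgeR adjusted p = 0.136).

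Of 19 receptors for microbial patterns and antibodies tested, 4 were higher (Pirb, Cd14, Cd300lf and Clec4n) and 3 lower (Trem3, Clec12a and Fcer1g), none of them called by DESeq2. These were 21.1% and 15.8% of the list, beside 7.87% and 7.61% of all genes. Cd14, the co-receptor for lipopolysaccharide, stood at 877 and 1188 CPM in Aged and 1946 and 1759 CPM in EAE (log2 difference 0.85, SE 0.18, edgeR adjusted p = 0.00142). Fcer1g, the signalling chain of Fc receptors, stood at 3809.8 and 4199 CPM in Aged and 2816 and 2871 CPM in EAE. Of 12 cytokines and chemokines, Csf1 and Ccl5 were higher and Osm, oncostatin M, was lower (16.7% and 8.33%, beside 7.87% and 7.61% of all genes), with none called by DESeq2. Csf1 and Ccl5 rested on 3 UMIs or fewer in Aged (ratios 6.29, 2.04–31.5, and 17.0, 2.91–688). Both reached the level of the filter in both EAE but not in both Aged libraries, so the filter fixes part of their direction. Osm stood at 641 and 696 CPM in Aged and 389 and 328 CPM in EAE.

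Among 16 genes of survival and death, Bcl2l1, which codes for the anti-apoptotic protein Bcl-xL, was higher in EAE. It stood at 45 and 24 CPM in Aged and 234 and 321 CPM in EAE (log2 difference 2.97, SE 0.46, edgeR adjusted p = 3.43e-05), with 692, 679, 955 and 952 plain CPM in endothelial cells. Bcl2a1b and Btg1 were lower, and DESeq2 called Bcl2l1 alone. Of 16 stress and immediate early genes, Dusp1 was higher and Nr4a1 and Ier5 lower, of which DESeq2 called Nr4a1. In both lists 3 of 16 were called (18.8%), near the 15.5% of all genes tested. Nr4a1, an orphan nuclear receptor, stood at 371 and 336 CPM in Aged and 101 and 118 CPM in EAE neutrophils, while endothelial cells held 204, 193, 250.2 and 234 plain CPM. Of 74 cytosolic ribosomal genes tested 37 were higher (50%, beside 7.87% of all genes) and none lower, with a median log2 difference of 0.642, but DESeq2 called none of them.

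Further called genes belong to other lists or stand out by the size of their change. Of 15 genes of glycolysis and hypoxia tested, the cytokine Mif was higher (33.7 and 96 CPM in Aged, 237 and 159 CPM in EAE) and Gapdh, the lactate transporter Slc16a3 and the hexokinase Hk3 were lower, none of them called by DESeq2. The list was called at 26.7%, beside 15.5% of all genes. The histone variant H2afz was lower, at 787 and 360 CPM in Aged and 196 and 142 CPM in EAE (log2 difference −1.76, SE 0.31, edgeR adjusted p = 0.000991). Among cells low in Camp, Ltf and Ngp it was not called. The transcription factor Klf6 was higher, and Nfkbie, an inhibitor of NF-kB, was lower, but DESeq2 called neither (adjusted p = 0.363 and 0.189). Among the largest changes not yet named, S100a10, H2-K2 and Apoc2 rested on 1, 1 and 3 UMIs in Aged (ratios 12.7, 2.13–516, then 11.97, 2.00–487, and 10.9, 3.61–53.8) and DESeq2 called none of them. The kinase gene Stk39 stood at 135 and 156 CPM in Aged and 22.1 and 23.7 CPM in EAE. 5430421N21Rik, Ldhc and Gm10080 were lower as well, and DESeq2 called all 4 of these lower genes.

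**Figure D4:**
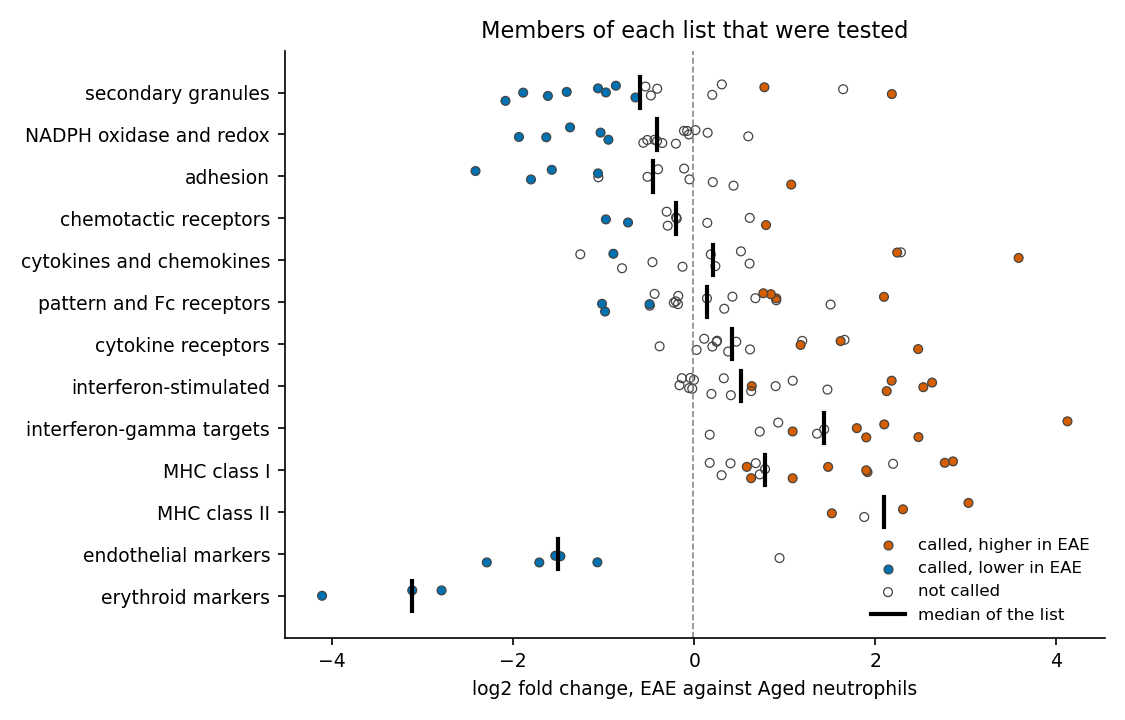
Log2 fold change of EAE against Aged neutrophils (horizontal axis) for each tested member of 13 lists (rows), filled where edgeR called the gene, with the list median as a black bar. Members of the interferon, MHC class I and class II lists were called only to the right of 0, and those of the redox, endothelial and erythroid lists only to the left.

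Marker transcripts of other cells were present in the neutrophils, and some differed between the groups. Summed erythroid markers stood at 974 and 1261 plain CPM in Aged and 124 and 88.6 in EAE neutrophils, and in endothelial cells of the same libraries at 14853, 9646, 1976 and 1845. The 3 haemoglobin genes tested, Hbb-bs, Hba-a1 and Hba-a2, were lower in EAE. Hbb-bs stood at 787 and 1164 CPM in Aged and 60.1 and 50.7 CPM in EAE (log2 difference −4.11, SE 0.27, edgeR adjusted p = 1.91e-12). In thinned cells 50% and 89.2% of Aged neutrophils held an Hbb-bs UMI, against 49.6% and 55.3% of Aged endothelial cells, so in Aged 2 the neutrophil share was the higher. The highest of these sums was that of choroid plexus markers, 5188 and 7920 plain CPM in Aged and 8963 and 9121 in EAE neutrophils, and neither of the 2 tested was called. Endothelial markers summed to 1782 and 2512.5 plain CPM in Aged and 1105 and 1141.5 in EAE neutrophils, against 37820 to 43738 in endothelial cells. Of 6 endothelial markers tested, 5 were lower in EAE (83.3%, beside 7.61% of all genes), and DESeq2 called 2. Of the 6, 2 reached the level of the filter, 49.8 plain CPM, in both Aged but not in both EAE libraries, and both were called. The same held for 2 of the 3 haemoglobin genes, for Acta2 and for 110 of all 1905 genes. The filter thus fixes part of the direction of these calls. Bsg and Itm2a, both abundant in brain endothelium, are 2 of the 14 lower genes called in every alternative. Bsg stood at 25278, 25094, 14942 and 14748 plain CPM in endothelial cells and at 1292, 1679.5, 506 and 558 CPM in neutrophils, and the part of transcripts from other cells in its difference was not tested. Acta2, a contractile gene of mural cells, was lower in EAE neutrophils (157 and 132 CPM in Aged, 22.1 and 13.5 CPM in EAE). In thinned cells 19.4% and 18.9% of Aged neutrophils held an Acta2 UMI, against 0.598% and 0.771% of Aged endothelial cells. The source of these transcripts was not tested.

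Of 16 macrophage markers 6 could be tested between the groups, and none was called, beside 15.5% of all genes tested. So few genes cannot show that macrophage transcripts were equal in the groups. Summed over the list they stood at 1875 and 2737 plain CPM in Aged and 2461 and 2545 in EAE neutrophils, against 22497 and 22753 in EAE macrophages. Arg1, at 218 plain CPM in the pooled EAE macrophages, had no UMI in the neutrophils. Other genes that were higher in EAE macrophages than in EAE neutrophils were nevertheless called higher in EAE than in Aged neutrophils, among them Cd74, H2-Aa, H2-Eb1, Ccl5, AW112010, Saa3 and Plac8. When neutrophils with a UMI of Ccr2, Ms4a6c, Ms4a7 or Fn1 were left out, those named were still called, except Ccl5, which could not be tested. This alternative was chosen after the data had been seen, and the part of macrophage transcripts in these differences was not tested.

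Adult neutrophils share the age of the EAE mice but not the immunization. There were 10 in 3 libraries with 21026 UMIs in all, pooled here with no replicate check, and their intervals are exact Poisson intervals for counting error. For 13 of the 17 higher genes called in every alternative the Adult interval lay below both EAE libraries, beside 6.88% of all genes tested and 42.7% of the 150 called higher. The 17 genes were picked for high EAE values, so their choice fixes part of this order. Ifitm1 stood at 809 plain CPM in Adult (471–1295), beside 1077 and 644 in Aged and 6646 and 7005 in EAE. Wfdc17 stood at 1474 (1002–2093), beside 1809.8 and 1559.8 in Aged and 12424 and 11087 in EAE. Asprv1 stood at 333 (134–686) in Adult neutrophils and 1292 and 1465 in EAE. For these 3 genes the Adult interval held both Aged values and neither EAE value.

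For 5 of the 14 lower genes, which were picked for low EAE values, the Adult interval lay above both EAE libraries, beside 2.89% of all genes tested and 16.6% of the 145 called lower. Thbs1 stood at 904 plain CPM in Adult (544–1411) against 254 and 181 in EAE, and Cd9 at 1237 (808–1812) against 763 and 654. For Ifi27l2a (380, 164–750) and Marcksl1 (190, 51.8–487) it lay below both Aged values, 1067 and 1037 for Ifi27l2a and 984 and 588 for Marcksl1, and held both EAE values. Lyz2, at 7087 (5994–8320), lay between EAE (4423 and 5162) and Aged (13318 and 14290). Il1r2, at 1189 (770–1755), lay above both Aged and below both EAE libraries, and Plac8, with 1 UMI, lay below all 4. Camp stood at 4804 plain CPM in Adult (3913–5837), below Aged (36771 and 17877) and EAE (8313 and 8106) alike. UMIs of 1 cell are not independent, and Camp was concentrated in a minority of cells. With so few Adult cells this interval is therefore too narrow, and the order of Adult and the other groups is not firm. Whether Camp differs with age was not tested.

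EAE neutrophils were also set beside the 1158 EAE macrophages (607 and 551 cells), cells rich in Lyz2 and in Ccr2, Ms4a6c, Ms4a7 and Fn1 and poor in neutrophil, microglial and lymphocyte genes. Of 3622 genes tested edgeR called 2340 (64.6%), 1138 higher in neutrophils (31.4%) and 1202 lower (33.2%). Because both rules picked cells by cell type genes, genes that go with either type had to differ, and the values describe the types. Without the EAE 1 library 950 genes were called and without EAE 2 965. The neutrophils were much the shallower cells, with median UMI counts of 1695 and 1837.5 against 5653 and 5751.

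The secondary granule list stood out by size, with 14 of 15 tested higher in neutrophils (93.3%, beside 31.4% of all genes) and a median log2 difference of 7.24. Ngp stood at 19192 and 18080 CPM in neutrophils and 8.04 and 4.87 CPM in macrophages of EAE 1 and EAE 2, on the CPM scale of this fit. Camp stood at 8854 and 9136 CPM against 3.55 and 3.84 CPM. Stfa2l1 had no UMI in the macrophages and was at least 1666-fold higher. G0s2 stood at 3758 and 3287 CPM against 3.55 and 3.59 CPM, and Hdc at 1954 and 2085 CPM against 11.8 and 13.1 CPM. The glucose transporter Slc2a3 stood at 310.3 and 303 CPM against 3.07 and 3.59 CPM. Camp, Ngp, Stfa2l1 and G0s2 were near absent from these macrophages, which had been chosen to be poor in neutrophil genes, but the whole list was not: its 16 genes, Lyz2 included, summed to 21379 and 20691 plain CPM in macrophages and 56695 and 57631 in EAE neutrophils. Chi3l3 stood at 2803 and 2793 plain CPM in macrophages and 3077 and 2893 in neutrophils.

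**Figure D5:**
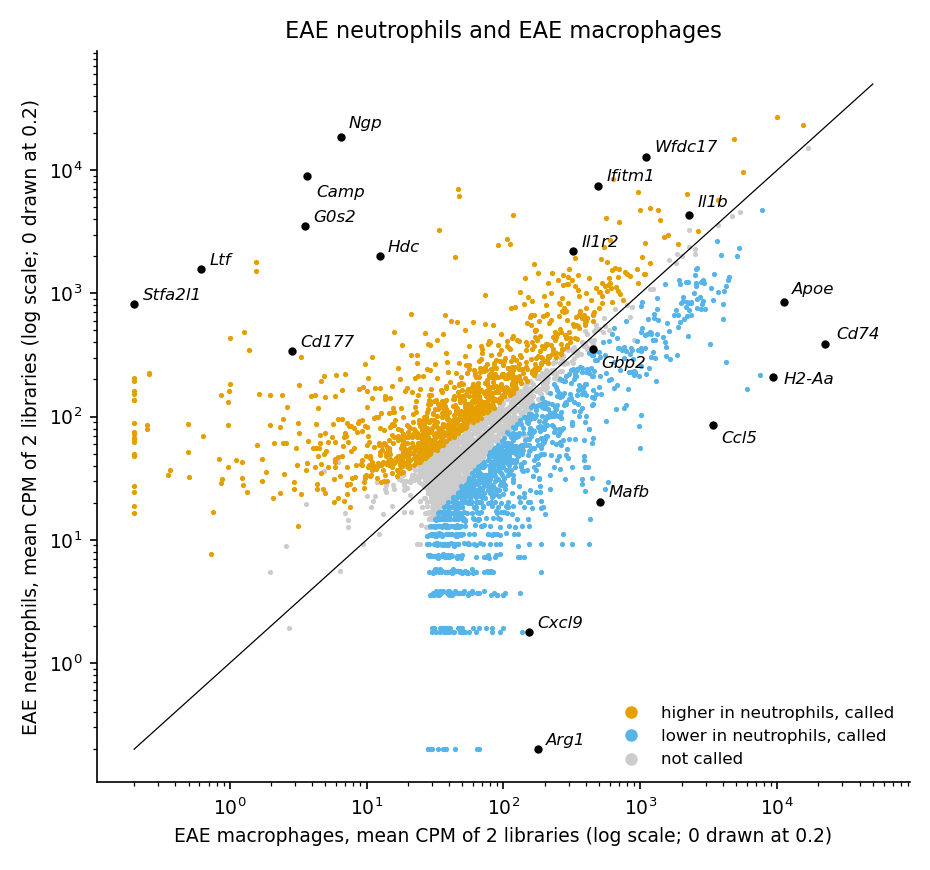
Mean TMM-scaled CPM of the 2 EAE libraries in macrophages (horizontal axis) and neutrophils (vertical axis), both on log scales with 0 drawn at 0.2, for each of 3622 genes tested, coloured by the edgeR call. Granule genes, G0s2 and Hdc lie far above the line of equal level, Cd74, H2-Aa, Ccl5 and Apoe far below it, and Gbp2 close to it.

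The EAE neutrophils enter both comparisons, so genes called in both are only set side by side. Several of those higher in EAE than in Aged neutrophils were also far higher in neutrophils than in macrophages. Asprv1 stood at 1376 and 1651 CPM in neutrophils and 2.84 and 0.256 CPM in macrophages (log2 difference 9.81, edgeR adjusted p = 1.32e-17). Wfdc17 stood at 13233 and 12496 CPM against 1111 and 1076 CPM. Ifitm1 stood at 7078 and 7896 CPM against 475 and 505 CPM, Lrg1 at 1819 and 2151 CPM against 38.8 and 50 CPM, and Il1r2 at 2318 and 2081 CPM against 316 and 326 CPM. Il1b was higher in neutrophils by less, at 3865 and 4708 CPM against 2361 and 2193 CPM (log2 difference 0.91, edgeR adjusted p = 1.17e-06).

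Others were higher in macrophages. Saa3 stood at 410.1 and 223 CPM in neutrophils and 1804.5 and 1884 CPM in macrophages. Plac8 stood at 1362 and 1333 CPM against 4564 and 4257 CPM, and the noncoding RNA AW112010 at 324 and 230.4 CPM against 4250.4 and 4218 CPM. Cd74 stood at 453 and 330.3 CPM against 23181 and 21921 CPM. All 6 class II genes tested were lower in neutrophils (100%, beside 33.2% of all genes), with a median log2 difference of −5.14. Gbp2 stood at 435 and 273 CPM in neutrophils and 475 and 419 CPM in macrophages and was not called (edgeR adjusted p = 0.0618).

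Of 16 class I genes tested, 9 were lower in neutrophils (56.2%, beside 33.2% of all genes) and 2 higher (H2-D1 and H2-Q10). H2-K1 stood at 1162 and 1221 CPM in neutrophils and 1515 and 1507 CPM in macrophages. Of 18 targets of interferon gamma, 11 were lower (61.1%) and 2 higher, Irf1 (143 and 134 CPM against 42.1 and 45.1 CPM) and Igtp. Of 26 interferon-stimulated genes, 12 were higher (46.2%, beside 31.4% of all genes) and 5 lower (19.2%). Of 19 redox genes 11 were higher (57.9%, beside 31.4% of all genes) and 5 lower (26.3%, beside 33.2%). Irg1 stood at 278 and 253 CPM against 32.2 and 30.5 CPM, while Cybb was lower in neutrophils by 1.52 on the log2 scale.

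Receptors for adhesion and chemotaxis were mostly higher in neutrophils, 14 of 17 (82.4%) and 8 of 10 (80%) tested, beside 31.4% of all genes. The exceptions called lower were the integrins Itga4, Itgb1 and Itgb7, which monocytes and lymphocytes use to bind VCAM1, and the receptor Gpr35. Of 18 cytokines and chemokines, 7 were higher and 8 lower (38.9% and 44.4%, beside 31.4% and 33.2% of all genes). Ccl5 stood at 111 and 61.4 CPM in neutrophils and 3531 and 3210.3 CPM in macrophages, and Cxcl9, a chemokine induced by interferon gamma, was higher in macrophages by a ratio of 112 (95% counting interval 20.1–4426). Endothelial markers, 6 of 6 tested (100%, beside 31.4% of all genes), were higher in neutrophils, the shallower cells. The part of transcripts from other cells in low values here was not tested.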

How the data were processed

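The authors assigned reads to cell barcodes and genes and deposited whole UMI counts per gene and barcode, unnormalized and before their filters on cells. The submitters' processing notes name bcl2fastq 2.19.1.403, UMI-tools 0.5.3, STAR 2.5.3a, featureCounts 1.6.1 and build mm10. Gene symbols are those of the deposited counts. Positions are from GENCODE M21 (GRCm38) and promoter sequences from RefSeq.

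Cells were filtered and chosen as stated above, and neither empty droplets nor free RNA were modelled. For tests, UMIs of the neutrophils of each library were summed (R 4.3.3) and compared by the quasi-likelihood test of edgeR 4.0.16, with robust fitting, TMM scaling, genes kept by filterByExpr and Benjamini-Hochberg adjustment. The genes of the rule were left out of the adjustment. The macrophage comparison was fitted with the Aged neutrophils, to estimate the spread. Library sums of 107065 to 298687 UMIs limited the neutrophil tests to 1905 genes. Between the 2 libraries of a group, chi-square per degree of freedom was 2.00 (EAE) and 4.68 (Aged). UMIs of 1 cell are not independent, so these values cannot show whether 2 libraries came from separate pools. The labels number the libraries as replicates, and each was counted as 1 sample. On simulated data the test recovered 33.9% of genes changed by 1 on the log2 scale in the first comparison and 60.6% in the second. The simulated dispersion (spread between libraries beyond counting) was 0.013, near the 0.0136 of the first fit but above the 0.00384 of the second. The 60.6% thus does not give the recovery of the second test at its own spread. Endothelial cells held at least 5 UMIs of Cldn5 and Flt1, at most 3 of C1qa and C1qb and under 20 of S100a8 and S100a9. Thinned cells were drawn to 1000 UMIs without replacement, and 1 shallower EAE 2 cell was left out.

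The genes to name were those of the rule, the called and the most abundant members of each list, and the 12 with the largest change in each direction. For length, many of them are only counted, above all against macrophages. Called genes with 3 UMIs or fewer in the lower group are given as ratios where their values are printed for EAE against Aged. The members and lists were chosen with earlier results of these data known. The 31 genes called in every alternative were chosen after their values were seen. Alternatives were DESeq2 1.42.0, its size factors, no filter on low counts, each library left out, a replicate block, other limits for cells, thinning, a fit with the EAE macrophages and leaving out Scrublet doublets (none was a neutrophil of Aged or EAE). Those without cells holding 4 macrophage genes, without cells rich in granule transcripts, and with library sizes free of rule genes were added after seeing the data. Leaving out a library left 1 library of that condition, so the libraries of the other condition alone gave the spread.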

Additional observations from a re-analysis of the deposited data

Results flagged for a closer look

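Barcodes with 500 genes or fewer were left out above, and some of them met the gene limits of the neutrophil rule. There were 38 in Aged 1, 19 in Aged 2, 19 in EAE 1 and 23 in EAE 2, against at most 3 in any Adult or Juvenile library. In Aged 1 they were as many as the 36 neutrophils that were kept.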

How the results depend on the processing

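Neutrophil sums of 107749 and 107065 UMIs in Aged limited what could be tested, and a gene missing from the calls is not shown to be equal. Of the 295 genes called between EAE and Aged neutrophils, DESeq2 called 52 (17 higher and 35 lower in EAE, 32.7% of calls higher). Without a filter on low counts there were 317 higher and 79 lower, 396 in all, with 80.1% of calls higher in place of 50.8% and a median log2 difference of 0.467 over all genes. After thinning there were 154 calls (77 higher and 77 lower). Some alternatives were chosen after seeing the data: without neutrophils holding UMIs of 4 macrophage genes 224 were called, 96 higher and 128 lower (42.9% of calls higher), and in cells low in Camp, Ltf and Ngp 163 were called, 83 higher and 80 lower. With 1 library left out the calls ranged from 114 (without EAE 1; without EAE 2 it was 146) to 268 (without Aged 2), the higher ones from 54 to 134 and the lower ones from 60 to 140. The replicate numbers did not show a pairing (2 pairs, correlation of deviations 0.141), and with the replicate number as a block 72 genes were called, 31 higher and 41 lower.

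Against macrophages, 1896 genes were lower without a filter. Thinning left 1377 calls, 656 higher and 721 lower. With 1 library left out there were 950 (without EAE 1; without EAE 2 it was 965) to 2567 calls, 451 to 1233 higher and 497 to 1337 lower, and with the library as a block 2313. The share of neutrophils in Aged 1 was 1.25% with more than 200 genes per cell.

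A few genes that were not called changed sign. Il1b between EAE and Aged was 0.22 without a filter and ranged from −0.22 to 0.036 with 1 library left out, Cxcr4 was −0.007544 with more than 200 genes per cell and −0.059 in cells low in granule transcripts, and Lcn2 was 0.17 and Hdc −0.012 in those cells. Clec4d was 0.17 without a filter, and Trem1 was −0.037 with the stricter neutrophil rule, −0.15 after thinning and −0.26 in cells low in granule transcripts. Gbp2 against macrophages was 0.016 in those cells. Some called genes changed sign too, none of them called with the other sign. Arl6ip1 did after thinning (0.0644), and Gm5483 (−0.215) and Rgcc (0.375) did in cells low in granule transcripts, while against macrophages 8 genes did after thinning, 6 in those cells, 3 without EAE 2 and 1 without EAE 1. The cause was not tested for any of these.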
